A study of Mus musculus with 32 samples.

Results

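The 5 genes described here encode the subunits of the nicotinic acetylcholine receptor of skeletal muscle: Chrna1, Chrnb1, Chrnd, Chrne and Chrng. They were taken by gene symbol from a table of 55487 Ensembl genes, and all 5 were found. Expression was measured by RNA sequencing of polyadenylated RNA in 32 libraries from 16 mice. Each mouse gave the gastrocnemius medialis, a fast muscle, and the soleus, a slow muscle, both from the left leg. There were 4 genotypes with 4 mice each: control, Acvr1b KO, Tgfbr1 KO, and Acvr1b and Tgfbr1 KO, here called the double KO. Acvr1b and Tgfbr1 encode type I receptors of the TGF-beta family, through which activins, myostatin and TGF-beta signal. The knockouts were restricted to myofibres and were started with tamoxifen when the mice were 6 weeks old, 3 months before the muscles were taken. The Cre line and its promoter, and whether control mice received tamoxifen, are not given in the sources used here.

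The receptor is a ring of subunits in the muscle membrane beneath the motor nerve ending, where acetylcholine opens it and starts contraction. Chrna1 supplies the acetylcholine-binding alpha subunit, and Chrnb1 and Chrnd supply the beta and delta subunits. The remaining position is taken by the gamma subunit, Chrng, in embryonic muscle and by the epsilon subunit, Chrne, in adult junctions. Innervation normally keeps the alpha, delta and gamma genes low outside the junction. When a muscle loses electrical activity, as after denervation, these genes are switched on along the whole fibre by the myogenic factors Myod1 and Myog, which bind E-boxes. Chrne is transcribed mainly by the nuclei under the nerve ending, through an element called the N-box that binds ETS factors.

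The upstream sequences of Chrne, Chrna1 and Chrng are shown because they carry these 2 kinds of element and because the 3 genes moved differently. They come from RefSeq on GRCm38.p6, where 4 of the 5 genes were matched, are written 5′ to 3′ on the gene's strand, and stop before the annotated transcript. Capitals mark E-boxes (CANNTG) and the N-box core (CCGGAA), both searched on both strands, and no match overlapped another. The stretches are chr11:70619217-70619444 (minus strand) for Chrne, chr2:73580339-73580588 (minus strand) for Chrna1 and chr1:87205561-87205809 (plus strand) for Chrng. The Chrng stretch lies before the RefSeq start, within an intron of a longer transcript of the same gene in Ensembl.
Chrne: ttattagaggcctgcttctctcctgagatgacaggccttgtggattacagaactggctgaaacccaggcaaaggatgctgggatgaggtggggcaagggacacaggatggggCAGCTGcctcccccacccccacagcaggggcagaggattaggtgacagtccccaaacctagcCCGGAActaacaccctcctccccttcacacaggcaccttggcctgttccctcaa
Chrna1: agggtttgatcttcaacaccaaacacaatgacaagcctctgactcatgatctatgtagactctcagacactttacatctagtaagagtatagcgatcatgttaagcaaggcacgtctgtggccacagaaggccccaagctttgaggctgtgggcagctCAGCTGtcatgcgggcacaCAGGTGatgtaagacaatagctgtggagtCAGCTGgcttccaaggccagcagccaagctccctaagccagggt
Chrng: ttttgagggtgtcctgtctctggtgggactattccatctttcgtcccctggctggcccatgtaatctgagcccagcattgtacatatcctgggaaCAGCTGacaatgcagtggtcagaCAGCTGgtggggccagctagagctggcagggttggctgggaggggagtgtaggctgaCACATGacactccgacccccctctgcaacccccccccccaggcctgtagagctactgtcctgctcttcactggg

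The Chrne stretch held an N-box core 76 to 71 bases before the RefSeq start and 1 E-box 138 to 133 bases before it. The Chrna1 stretch held 3 E-boxes, the nearest 44 to 39 bases before the start, and no N-box core. The Chrng and Chrnb1 stretches also held 3 E-boxes each and no N-box core. Over 32851 promoter windows of 300 bases, 14.9% held the N-box core, 17.6% held at least 3 E-boxes and 72.3% held at least 1. These matches describe letters only. Chrnd (chr1:87190607-87200070) and Chrng (chr1:87204657-87212694) are neighbours on the plus strand of chromosome 1, 4586 bases apart. Chrne (chr11:70614883-70619216) and Chrnb1 (chr11:69784036-69795943) both lie on the minus strand of chromosome 11, and Chrna1 (chr2:73563215-73580338) on that of chromosome 2. All coordinates are GRCm38.

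Library totals ran from 16535118 to 54456450 counts, with a median of 35697024.5. Levels are CPM, the count scaled by the TMM-corrected library size. The targeted gene Acvr1b was lower in the libraries labelled as its knockout (gastrocnemius mean 107 CPM in control, 25.6 in Acvr1b KO and 17.5 in double KO, and soleus 40.5, 12.4 and 8.58). Counts over the whole Tgfbr1 gene overlapped between the Tgfbr1 KO and control libraries (gastrocnemius mean 29.5 against 28.5 CPM, soleus 14.5 against 15.7) and averaged 47.8 and 24.9 CPM in the double KO, so they do not check that label. Soleus double KO 1 correlated less with its group (mean r 0.948 across genes, against 0.971 to 0.976 for the other 3), and so did gastrocnemius double KO 1 (0.980 against 0.986 to 0.988). Gastrocnemius control 1 held 25.99% mitochondrial counts, against 10.35% to 19.27% in the other gastrocnemius libraries, and Tgfbr1 KO 1 had the lowest total. The main double KO results of the subunits are given with and without the libraries of mouse 1. For Chrna1, Chrnd and Chrne in double KO against control gastrocnemius, values without gastrocnemius control 1 and Tgfbr1 KO 1 as well are also given. The double KO mice carry animal numbers in a range of their own, and so do the control mice. No label names a cohort. A cohort effect thus cannot be told apart from the double KO, or from the difference of a single knockout from control. The 7 marker genes of skeletal muscle fibres summed to 102200 to 118600 CPM in double KO gastrocnemius. The sums were higher in every gastrocnemius library of control (125600 to 143200), Acvr1b KO (120100 to 137300) and Tgfbr1 KO (123100 to 135200). In the soleus they ran from 32610 to 66740 CPM, the lowest value being that of soleus double KO 1.

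In the gastrocnemius, the adult subunit gene Chrne was 6.03-fold higher in the double KO than in control, and it passed the test in neither single knockout. Chrne stood at 6.63, 10.2, 9.73 and 9.76 CPM in the 4 control mice. It was 8.03, 9.16, 8.59 and 9.15 CPM in the Acvr1b KO mice, and 9.68, 8.17, 9.19 and 8.79 CPM in the Tgfbr1 KO mice. In the double KO mice it was 56.4, 55.4, 52.3 and 52.3 CPM. The 4 double KO libraries lay far above all 12 others, and their spread was small (54.1 ± 2.12 CPM, SD, n = 4, against 9.07 ± 1.64 in control).

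On the log2 scale the fold change of Chrne between double KO and control was 2.59 (SE 0.111, adjusted p = 5.38e-10, edgeR quasi-likelihood test with Benjamini-Hochberg adjustment over 17536 genes). Chrne had the smallest p of all 17536 genes in that comparison, while 65 genes called higher had a larger fold change. Other adjusted p values in the gastrocnemius comparisons were made likewise, unless libraries were left out or another fit is named. Against the Acvr1b KO the log2 fold change was 2.64 (adjusted p = 4.18e-10), and against the Tgfbr1 KO it was 2.62 (adjusted p = 5.42e-10). Neither single knockout passed the test against control: Chrne differed by -0.05 (SE 0.110, adjusted p = 1) in the Acvr1b KO and by -0.02 (SE 0.111, adjusted p = 0.999) in the Tgfbr1 KO. The double KO departed from the sum of the single effects by 2.66 on the log2 scale (SE 0.155, adjusted p = 7.81e-08). That departure too had the smallest p of the 17536 genes. Without double KO mouse 1, whose Chrne level was close to those of the other double KO mice, the double KO effect was 2.56 (adjusted p = 3.34e-09). It was 2.44 (adjusted p = 3.05e-10) when gastrocnemius control 1 and Tgfbr1 KO 1 were left out as well. That setting was chosen after the data were seen. In it Chrne differed from control by -0.17 (SE 0.0696, adjusted p = 0.82) in the Acvr1b KO. In the Tgfbr1 KO the difference was -0.19 (SE 0.0743, adjusted p = 0.323).

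In the soleus, Chrne did not pass the test. Control soleus had 6.14, 5.71, 5.12 and 6.45 CPM, and double KO soleus had 4.10, 7.07, 7.76 and 9.19 CPM. The value of 4.10 CPM, from mouse 1, was the lowest of the 8 and the other 3 were above every control library. The log2 fold change was 0.27 (SE 0.224, adjusted p = 0.683 over 18143 genes, edgeR). It was 0.45 without mouse 1 (adjusted p = 0.342). The difference between the muscles in the double KO effect was itself tested: soleus minus gastrocnemius, it was -2.32 on the log2 scale (SE 0.254, adjusted p = 3.28e-06, edgeR over 18726 genes). That fit held no term for the mouse. With the mouse as a block the difference was -2.37 (SE 0.264, adjusted p = 8.04e-05). It was -2.11 without both libraries of mouse 1 (adjusted p = 4.99e-06).

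**Figure D1:**
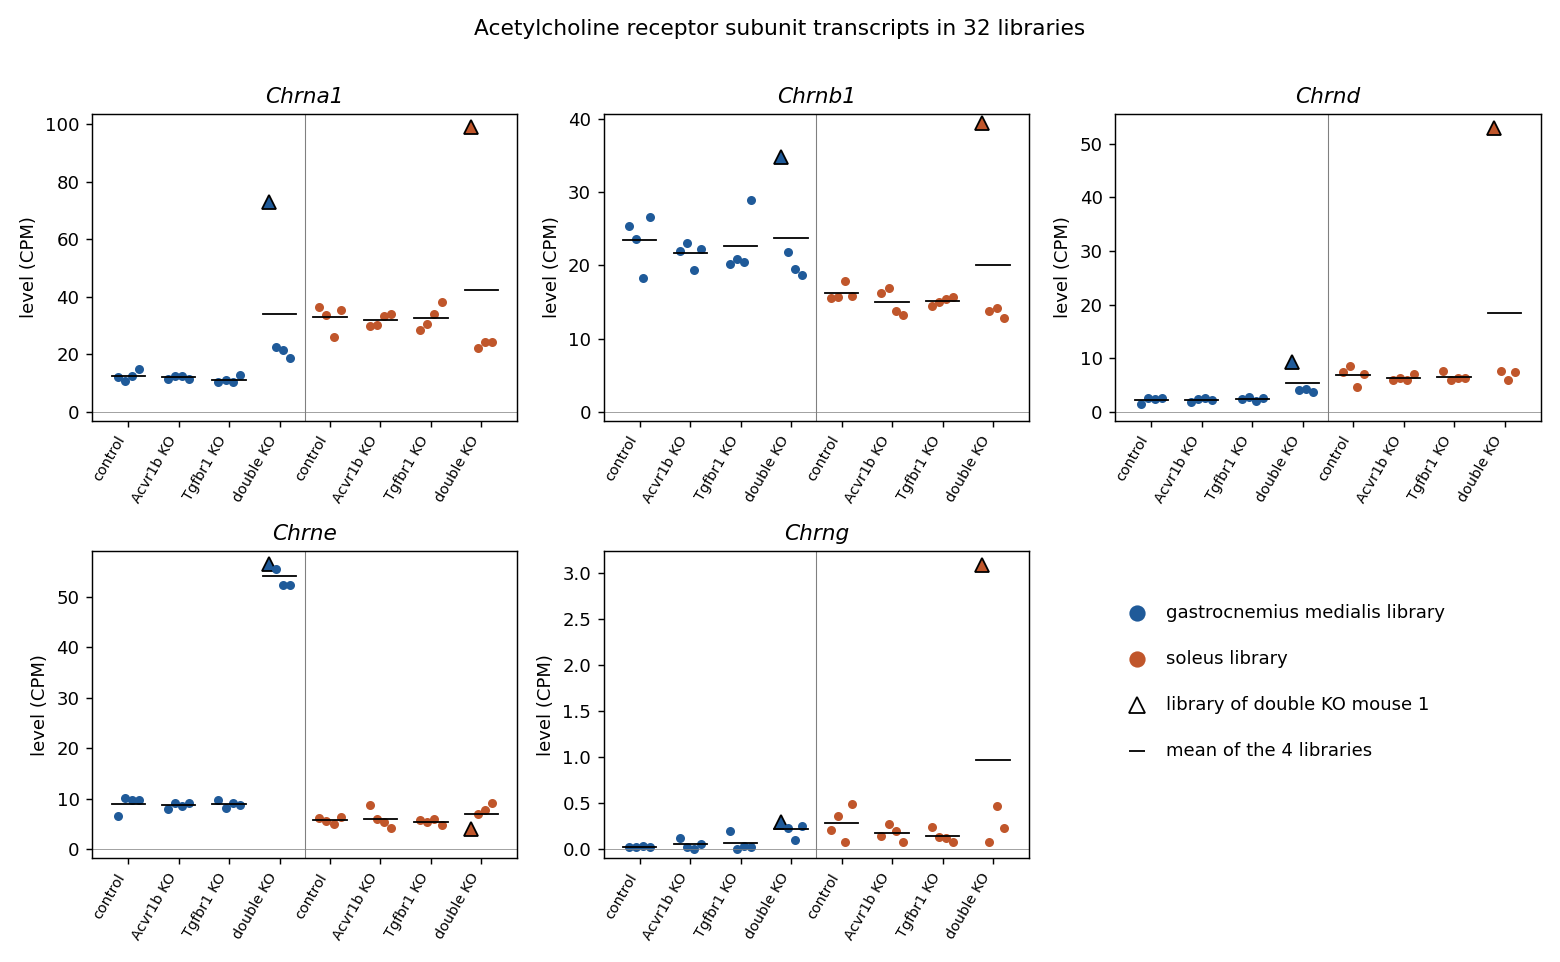
Level of each subunit transcript (y axis, CPM, linear from 0) in every library of the 8 groups of muscle and genotype (x axis), with the group mean as a line. Chrne in double KO gastrocnemius sits between 52.3 and 56.4 CPM, above all other libraries, while double KO mouse 1 (triangles) is the highest soleus library for Chrna1, Chrnb1, Chrnd and Chrng.

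The alpha and delta subunit genes also rose in double KO gastrocnemius, by less and with 1 mouse far above the rest. Chrna1 was 12.27, 10.95, 12.55 and 14.92 CPM in control and 72.95, 22.57, 21.60 and 18.75 CPM in the double KO. The groups did not overlap, as for 21.3% of all genes in this comparison, and mouse 1 stood at 3.48 times the mean of the other 3 double KO mice. Chrna1 rose by 1.44 on the log2 scale (SE 0.322, adjusted p = 0.00436), and without mouse 1 by 0.73 (SE 0.104, adjusted p = 0.000125). Chrnd was 1.44, 2.66, 2.52 and 2.53 CPM in control and 9.42, 4.11, 4.37 and 3.81 CPM in the double KO. Again every double KO library was above every control library and mouse 1 was the highest. Chrnd rose by 1.26 on the log2 scale (SE 0.263, adjusted p = 0.00269), and without mouse 1 by 0.85 (SE 0.177, adjusted p = 0.00276). With gastrocnemius control 1 and Tgfbr1 KO 1 also left out, Chrna1 rose by 0.72 (adjusted p = 0.000512) and Chrnd by 0.68 (adjusted p = 0.00281).

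Chrnb1, the beta subunit gene, did not pass the test in the gastrocnemius. It was 25.4, 23.6, 18.3 and 26.6 CPM in control and 34.8, 21.8, 19.5 and 18.6 CPM in the double KO, groups that overlapped, with mouse 1 again the highest. Its log2 fold change was 0.03 (SE 0.179, adjusted p = 0.933), and without mouse 1 it was -0.23 (adjusted p = 0.25).

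Chrng, the embryonic subunit gene, was near the limit of detection in the gastrocnemius. Each control library held 1 count, the Acvr1b KO libraries held 4, 1, 0 and 2, and the Tgfbr1 KO libraries held 3, 0, 1 and 1. The double KO libraries held 9, 8, 4 and 10 counts. These were more than in any control library, although the counts were low in all 16. Chrng therefore failed the filter on low counts and was not tested with the other genes. The summed counts gave a ratio of 7.54 between double KO and control (95% exact Poisson interval 2.67 to 29.4, counting error only). With no filter on low counts edgeR gave a log2 fold change of 2.78 (adjusted p = 0.0176), and DESeq2 gave 2.95 (adjusted p = 0.0276). Without mouse 1 the summed ratio was 6.80 (2.31 to 27.2).

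Of the 4 subunit genes tested in the gastrocnemius, 3 were thus called higher in the double KO than in control, beside 20.9% of all genes called and 11.4% called higher. The same 3 were called higher against the Acvr1b KO, where 16.3% of all genes were called and 9.2% called higher, and against the Tgfbr1 KO, where 12.9% were called and 7.44% called higher. The 3 comparisons share the double KO libraries. For Chrna1 these log2 fold changes were 1.51 (adjusted p = 0.00402) and 1.61 (adjusted p = 0.00371). For Chrnd they were 1.27 (adjusted p = 0.00323) and 1.13 (adjusted p = 0.00999). Without mouse 1, Chrna1 was at 0.80 (adjusted p = 7.2e-05) and 0.90 (adjusted p = 4.07e-05). Chrnd was then at 0.86 (adjusted p = 0.00326) and 0.72 (adjusted p = 0.015). In the departure from additivity only Chrne among the 4 passed, beside 2.14% of all genes. Chrna1 departed by 1.69 (SE 0.458, adjusted p = 0.0674), and by 0.98 (SE 0.145, adjusted p = 0.00128) without mouse 1. It was also called without double KO 4 (adjusted p = 0.0349) and with DESeq2 (adjusted p = 0.0288). Chrnd departed by 1.14 (SE 0.382, adjusted p = 0.147), and by 0.72 without mouse 1 (SE 0.249, adjusted p = 0.147). It was called at 0.89 (adjusted p = 0.0192) when gastrocnemius control 1 and Tgfbr1 KO 1 were left out as well, a setting chosen after the data were seen.

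No subunit gene passed the test in a single knockout, in either muscle. In the gastrocnemius, 0 of 4 passed in the Acvr1b KO (0.0285% of all genes were called) and 0 of 4 in the Tgfbr1 KO (0.171%). The largest difference among these 8 was -0.17 on the log2 scale, for Chrna1 in the Tgfbr1 KO (SE 0.327, adjusted p = 0.993, edgeR). In the soleus, 0 of 5 passed in the Acvr1b KO (0.022%) and 0 of 5 in the Tgfbr1 KO (0.0496%). Chrng had the largest soleus differences, -0.65 (SE 0.951) and -0.93 (SE 0.972), both with an adjusted p of 1. With edgeR 0 of these differences had an unadjusted p under 0.05 (the lowest was 0.351), and DESeq2 called 0 members in the same comparisons.

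In the soleus, no subunit gene passed in the double KO, where mouse 1 stood far from the other 3 mice. Chrna1 was 36.5, 33.7, 26.2 and 35.4 CPM in control soleus, and 99.1, 22.4, 24.4 and 24.2 CPM in the double KO. Mouse 1 was the highest of these 8 libraries, and the other 3 double KO mice were the lowest. Between the groups Chrna1 differed by 0.40 on the log2 scale (SE 0.375, adjusted p = 0.721), and without mouse 1 by -0.48 (SE 0.116, adjusted p = 0.0477). The direction of the Chrna1 difference in the soleus thus rested on 1 mouse.

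Chrnd in mouse 1 likewise stood apart. It was 7.46, 8.59, 4.71 and 7.02 CPM in control soleus and 53.0, 7.69, 5.96 and 7.51 CPM in the double KO. Its log2 fold change was 1.46 (SE 0.541, adjusted p = 0.277), and 0.02 without mouse 1 (adjusted p = 0.977). Chrnb1 was 15.5, 15.7, 17.8 and 15.8 CPM in control soleus and 39.3, 13.8, 14.2 and 12.9 CPM in the double KO. Its log2 fold change was 0.33 (SE 0.280, adjusted p = 0.686), and -0.26 without mouse 1 (adjusted p = 0.255). As in Chrna1, mouse 1 was the highest and the other 3 double KO libraries the lowest of the 8. Mouse 1 was set apart after the data were seen. The share of all genes in which the other 3 soleus libraries lie outside control was not worked out, for Chrna1, Chrnb1 or Chrne.

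Chrng in control soleus was 0.207, 0.361, 0.0760 and 0.492 CPM, from 8, 12, 3 and 19 counts. In the double KO it was 3.08, 0.0845, 0.469 and 0.228 CPM, from 142, 3, 17 and 8 counts. The 15 other soleus libraries of the study held at most 19 counts. The log2 fold change was 1.84 (SE 0.808, adjusted p = 0.367), and -0.11 without mouse 1 (adjusted p = 0.962). In all, 0 of 5 subunit genes passed in the soleus double KO against control, where 0.722% of all genes were called. The edgeR test gave 2 of them, Chrnd and Chrng, an unadjusted p below 0.05. With DESeq2 the count called was also 0. Comparisons of the double KO soleus with the Acvr1b KO and the Tgfbr1 KO also called 0 of 5 (0.127% and 0.0496% of all genes), with 2 at an unadjusted p under 0.05 in each and 0 called by DESeq2. These 2 were again Chrnd and Chrng. Without mouse 1, Chrnd was at 0.15 and 0.09 and Chrng at 0.55 and 0.83, and neither was called. Likewise 0 of 5 departed from additivity in the soleus, where 0% of all genes were called, with 2 members at an unadjusted p under 0.05 and 0 called by DESeq2.

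**Figure D2:**
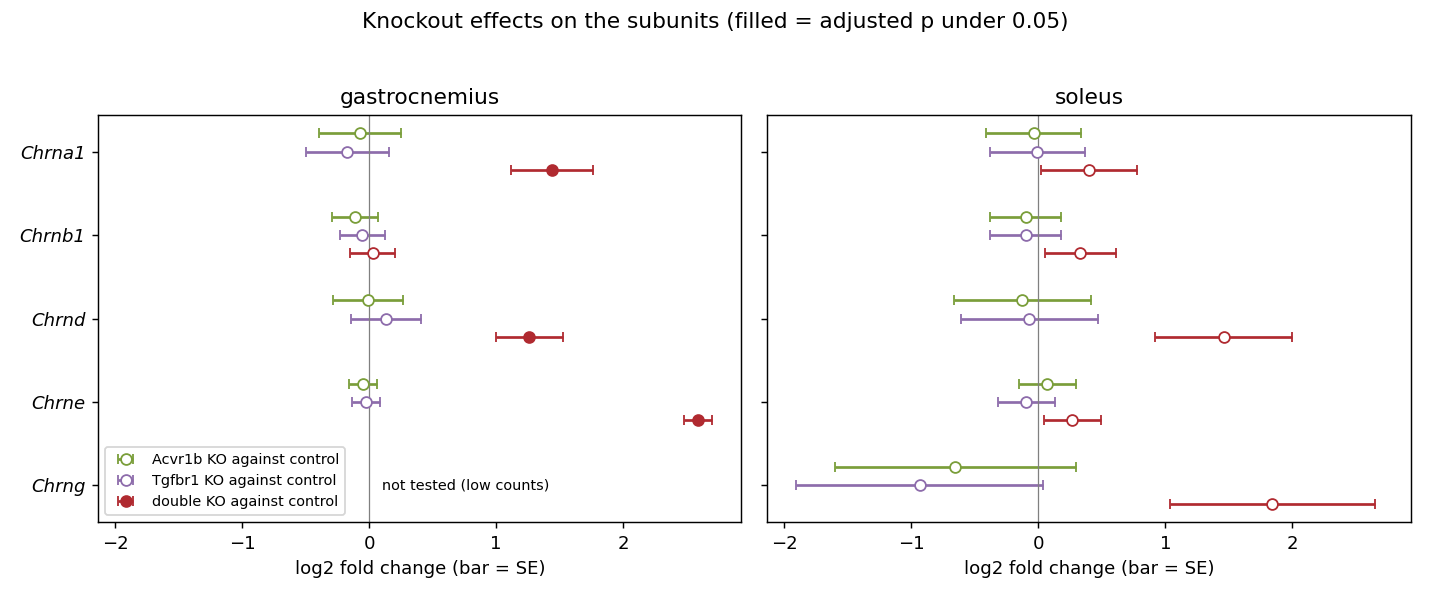
Log2 fold change against control (x axis, bar = SE) of each subunit gene in the 3 knockouts, in the gastrocnemius (left) and the soleus (right), with filled points for an adjusted p under 0.05. The filled points are Chrna1 (1.44), Chrnd (1.26) and Chrne (2.59) in double KO gastrocnemius, and the soleus bars of Chrnd and Chrng are the widest.

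The soleus and the gastrocnemius of the same genotype differed in their subunit transcripts even in control mice. Control soleus had more Chrna1 (32.95 ± 4.67 against 12.7 ± 1.65 CPM, SD, n = 4), more Chrnd (6.95 ± 1.63 against 2.29 ± 0.569) and more Chrng (0.284 ± 0.181 against 0.0292 ± 0.00500). It had less Chrne (5.86 ± 0.578 against 9.07 ± 1.64). The log2 differences, soleus minus gastrocnemius, were 1.38 for Chrna1 (adjusted p = 0.00339), 1.60 for Chrnd (0.00634), 3.15 for Chrng (0.0236) and -0.63 for Chrne (0.00605), edgeR adjusted p over 18726 genes. Thus 4 of 5 passed, beside 40.4% of all genes. The Chrng difference rested on 42 against 4 counts and lost its call when gastrocnemius control 1 or 4, or soleus control 4, was left out (adjusted p = 0.0592, 0.0515 and 0.0756).

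Chrnb1 was lower in control soleus (16.2 ± 1.08 against 23.5 ± 3.68 CPM), with no overlap of the libraries, as for 38.4% of all genes. Its log2 difference of -0.53 missed the threshold (adjusted p = 0.0755) and passed with the mouse as a block (-0.52, adjusted p = 0.00329). It behaved likewise in the Acvr1b KO (-0.52, adjusted p = 0.0803, and -0.53, adjusted p = 0.00297 with the block) and in the Tgfbr1 KO (-0.58, adjusted p = 0.0554, and -0.56, adjusted p = 0.00201). In both single knockouts Chrna1, Chrnd and Chrne were called in the same directions as in control, which makes 3 of 5 beside 41.5% and 40.5% of all genes. For Chrne the Acvr1b KO difference of -0.52 (adjusted p = 0.0224) lost its call without gastrocnemius Acvr1b KO 4, or soleus Acvr1b KO 3 or 4 (adjusted p = 0.0503, 0.0642 and 0.0976). For Chrnd the Tgfbr1 KO difference of 1.40 (adjusted p = 0.0165) lost it without gastrocnemius Tgfbr1 KO 3 (adjusted p = 0.0566) and with no filter on low counts (adjusted p = 0.0591).

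In the double KO the muscles lay farther apart for Chrne than in control, a difference that passed the test given above. Chrne was -2.95 on the log2 scale in soleus against gastrocnemius (SE 0.186, adjusted p = 4.19e-13). For Chrna1 the soleus excess was 0.33 (SE 0.356, adjusted p = 0.481), or 0.25 with the mouse as a block (adjusted p = 0.0456) and 0.13 without both libraries of mouse 1 (adjusted p = 0.399). Without only the gastrocnemius library of that mouse it was 1.02 (adjusted p = 0.0115), and without only its soleus library it was -0.56 (adjusted p = 0.103). The difference between the muscles in the Chrna1 double KO effect was -1.05 (SE 0.508, adjusted p = 0.56). It was -1.13 with the mouse as a block (SE 0.137, adjusted p = 0.000234) and -1.21 without both libraries of mouse 1 (SE 0.159, adjusted p = 3.48e-05). Leaving out 1 library of that mouse moved it far more, to -0.35 without its gastrocnemius (SE 0.419, adjusted p = 0.84) and to -1.90 without its soleus (SE 0.376, adjusted p = 0.00587).

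Chrnd and Chrng were called higher in double KO soleus than in double KO gastrocnemius (1.79, adjusted p = 0.00188, and 2.18, adjusted p = 0.0137). With Chrne this made 3 of 5 beside 39.7% of all genes. Without the soleus library of mouse 1 the Chrnd difference was 0.35 (adjusted p = 0.239) and that of Chrng 0.22 (adjusted p = 0.797). Without both libraries of mouse 1, Chrnd was called at 0.74 (adjusted p = 0.00201) and Chrng was not (0.37, adjusted p = 0.678). The Chrng call was also lost without gastrocnemius double KO 3 (adjusted p = 0.0517), and the Chrnd call with only the 2 double KO groups in the fit, where the difference was nearly the same (1.78) and its SE larger (0.760, adjusted p = 0.111). Chrnb1 was at -0.23 (adjusted p = 0.452), and was called with the mouse as a block (-0.36, adjusted p = 0.0328) and without both libraries of mouse 1 (-0.59, adjusted p = 0.000559). In the double KO effect, soleus minus gastrocnemius, only Chrne passed among the 5, beside 0.732% of all genes. For the effects of the single knockouts, edgeR called 0 of 5 as different between the muscles, with 0 of 5 at an unadjusted p under 0.05 and 0% of all genes called, and DESeq2 called 0 of 5.

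To compare the genes with each other, CPM was divided by the exon length listed in the table (4386 bases for Chrna1, 2531 for Chrnb1, 3288 for Chrnd, 1690 for Chrne and 4163 for Chrng), in kilobases. In control gastrocnemius Chrnb1 was the most abundant at 9.27 CPM per kb, followed by Chrne at 5.37, Chrna1 at 2.89, Chrnd at 0.696 and Chrng at 0.00701. Chrnb1 led in all 12 gastrocnemius libraries outside the double KO. In the double KO Chrne led in 4 of 4 libraries at 32.01 ± 1.25 CPM per kb, above Chrnb1 at 9.36 and Chrna1 at 7.74. In control soleus Chrna1 (7.51) and Chrnb1 (6.41) led, ahead of Chrne (3.46), Chrnd (2.11) and Chrng (0.0682).

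Chrne made up 22.8% to 34.7% of the summed per-kb level of the 5 genes in control gastrocnemius. It made up 68.5% to 70.7% in double KO mice 2 to 4 and 50.03% in mouse 1, where Chrna1 was also high. In control soleus the share was 16.9% to 18.7%. In double KO soleus it was 24.5%, 25.9% and 29.6% in mice 2 to 4 and 4.23% in mouse 1. The ratio of Chrne to Chrna1 per kb went from 1.40 to 2.41 in control gastrocnemius to 6.29 to 7.24 in double KO mice 2 to 4, with 2.01 in mouse 1.

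**Figure D3:**
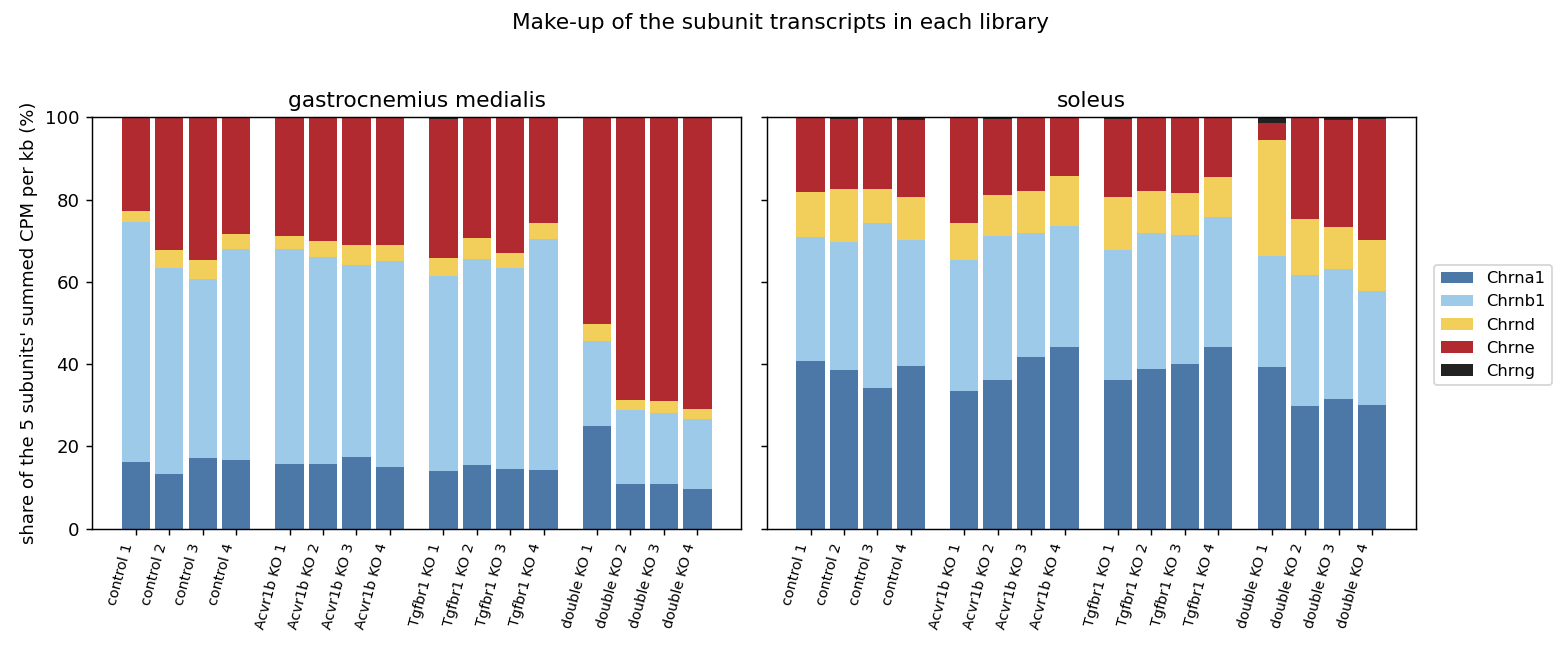
Share of each subunit in the summed CPM per kb of the 5 genes (y axis, percent, stacked to 100) in each of the 32 libraries (x axis). Chrne takes 50.03% to 70.7% in double KO gastrocnemius against 22.8% to 34.7% in control, and 4.23% in the soleus of double KO mouse 1, where Chrng becomes visible at the top.

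The adult subunit outweighed the embryonic one in every library. The share of Chrne in Chrne plus Chrng, per kb, was 99.8% to 99.9% in control gastrocnemius and 99.8% to 99.9% in double KO gastrocnemius, although both genes had more counts in the double KO. The Acvr1b KO and Tgfbr1 KO gastrocnemius ran from 99.4% and 99.2% to 100%, the top value in each from a library with 0 Chrng counts. A count of 0 allows up to 0.0811 CPM in that Acvr1b KO library and 0.0632 CPM in that Tgfbr1 KO library (3 counts). In the soleus the share was 97% to 99.4% in control, 98.2% to 99.3% in the Acvr1b KO and 98.3% to 99.3% in the Tgfbr1 KO.

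In double KO soleus it was 99.5%, 97.6% and 99% in mice 2 to 4. In mouse 1 it was 76.6% (exact binomial 95% interval 72.4% to 80.4%), from 189 Chrne and 142 Chrng counts. That was the lowest of the 32 libraries. Without division by exon length the share in this library was 57.1%, so its size depends on the lengths used. The intervals cover counting error only, and the share is a description with no test.

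Across the 8 groups Chrne in double KO gastrocnemius (54.1 CPM) stood alone. The next 3 groups were the other gastrocnemius genotypes at 8.74 to 9.07 CPM, which overlapped each other, and the 4 soleus groups followed at 5.49 to 7.03 CPM, also overlapping. For Chrna1 the soleus groups and the double KO gastrocnemius (31.9 to 42.5 CPM) overlapped in order, and the other 3 gastrocnemius groups (11.2 to 12.7 CPM) lay below all of them. For Chrnb1 the order ran from gastrocnemius (21.7 to 23.7 CPM) to soleus (15.1 to 20.1 CPM) and neighbouring groups overlapped. For Chrnd the means of the 4 soleus groups (6.32 to 18.5 CPM) were above that of the double KO gastrocnemius (5.43 CPM), whose libraries overlapped theirs, and the other gastrocnemius groups (2.25 to 2.48 CPM) were lowest. Chrng was lowest in the 3 gastrocnemius groups outside the double KO (0.0292 to 0.0650 CPM), and 0.148 to 0.966 CPM in the soleus.

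Double KO mouse 1 differed from its group in both muscles. Its gastrocnemius held 5.76 times the control mean of Chrna1 and 4.12 times that of Chrnd, and its soleus 3.01 and 7.63 times. In the other 3 double KO mice these values were 1.65 and 1.79 in the gastrocnemius, and 0.718 and 1.02 in the soleus. Chrne was high in the gastrocnemius of all 4 mice (6.21 times control in mouse 1 and 5.88 in the others). In the soleus it was 0.701 times control in mouse 1 and 1.37 times in the others.

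A list of 21 genes known for activity-dependent control of the receptor holds the myogenic factors, the deacetylases and kinases that act on them, and genes that respond to denervation. It also holds Tcf12, Id1, Id2 and Id3. In double KO gastrocnemius 11 of 21 were higher than in control and 1 was lower (median log2 fold change 1.02, against 0.0004 over all genes). Without mouse 1, 8 were higher and 2 lower (median 0.34), beside 20.8% of all genes called in either direction. Among the 8 were Id1, Id2 and Id3 (1.07, 0.83 and 1.32 on the log2 scale), named after their values were seen. Gadd45a, a stress-induced gene that rises on denervation, averaged 21.9 CPM in control and was 327 CPM in mouse 1 and 69.7 to 78.3 CPM in the other 3. Its log2 fold change was 2.68 (adjusted p = 0.000247), and 1.77 without mouse 1 (adjusted p = 3.35e-06). Myod1 went from 1.39 CPM to 8.31 in mouse 1 and 5.14 to 7.09 in the others (2.26, adjusted p = 2.28e-05, and 2.12, adjusted p = 5.00e-05 without mouse 1).

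In the soleus, edgeR called 0 of 21 (median 0.32, with 10 at an unadjusted p under 0.05), and without mouse 1 also 0 of 21 (median 0.01). There mouse 1 had 803 CPM of Gadd45a against 6.99 in control and 21.2 CPM of Myod1 against 0.871. Myog, named after its values were seen, was 46.5 CPM in that library against 2.39 in control and 2.28 to 2.45 in the other 3. In the gastrocnemius without mouse 1, Myog was at 0.63 on the log2 scale against control and did not pass (edgeR adjusted p = 0.0815). Mouse 1 was the highest of the 8 double KO and control soleus libraries for 15 of the 21 genes, and for 30.3% of all genes. In the gastrocnemius it was the highest for 10 of the 21 and for 15% of all genes. Markers of other cells also stood at an end in that mouse. In its soleus 6 of 6 macrophage markers were the highest of the 8 libraries, 6 of 6 endothelial markers and 6 of 7 fibre markers were the lowest, and so were 7 of 10 Schwann cell and nerve markers (31.8% of all genes were lowest there). In its gastrocnemius 5 of 6 macrophage markers were the highest and 4 of 7 fibre markers the lowest, beside 19.3% of all genes lowest. Their part in the levels of mouse 1 was not tested.

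**Figure D4:**
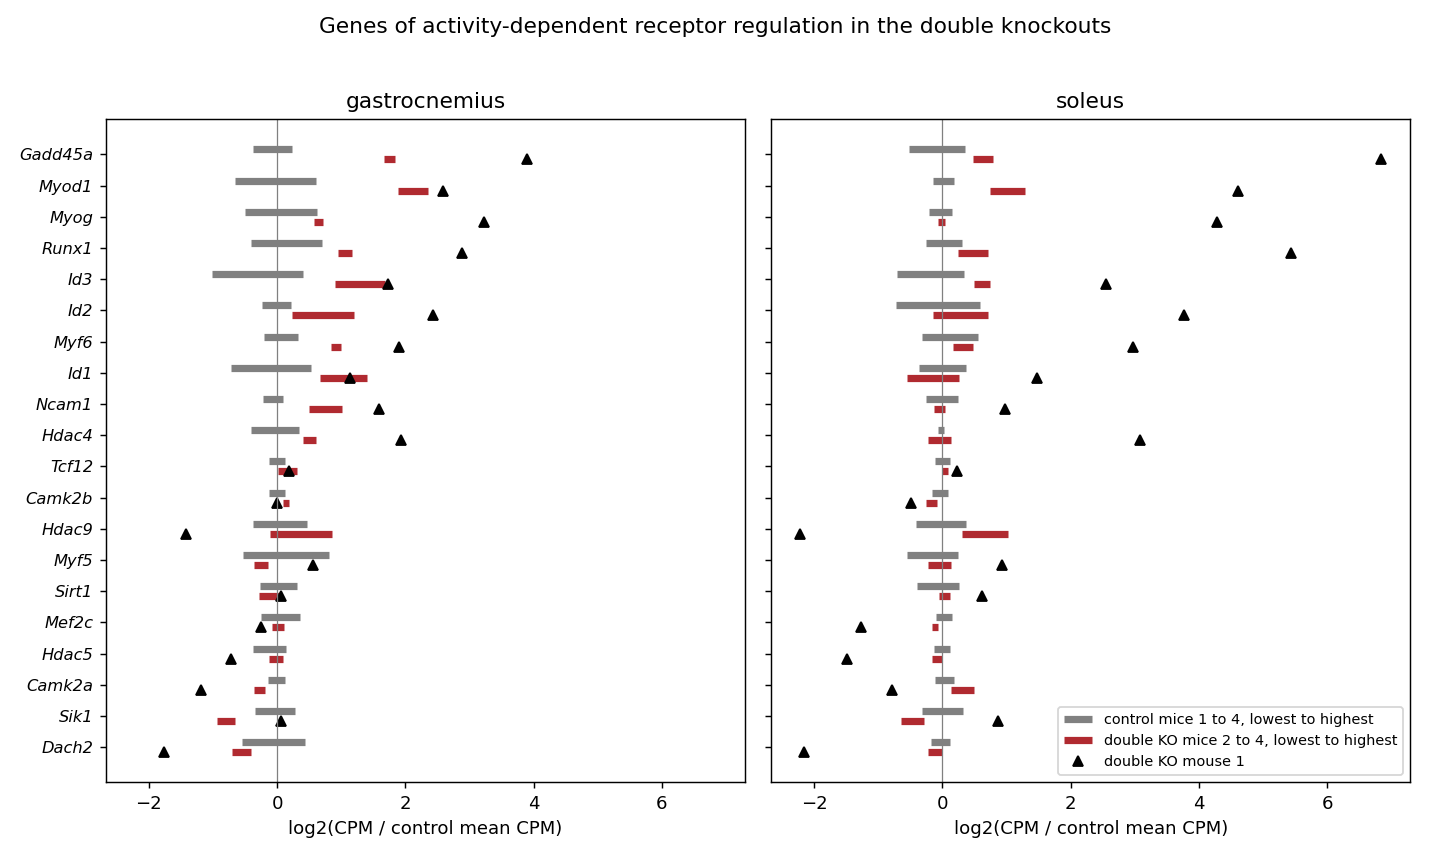
Level of 20 of the 21 genes of activity-dependent receptor control (rows) relative to the control mean (x axis, log2 of the CPM ratio) in the gastrocnemius (left) and the soleus (right), with the range of the control mice and of double KO mice 2 to 4 as bars and double KO mouse 1 as triangles. In the gastrocnemius Gadd45a and Myod1 of mice 2 to 4 lie above control and below mouse 1, and in the soleus mouse 1 lies far to the right for both.

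Of the genes known for transcription at the synapse, 11 were tested, and Etv4 and Etv5, ETS factors linked to junctional expression, were the 2 called higher in double KO gastrocnemius, with 0 lower, a share near the 20.9% of all genes called (11.4% higher). Etv5 was 8.52 to 8.75 CPM in control and 16.19 to 19.95 CPM in all 4 double KO libraries (log2 1.07, adjusted p = 5.33e-07). Etv4 went from a mean of 1.11 CPM to 2.62 in mouse 1 and 3.89 to 4.16 in the others (1.72, adjusted p = 2.17e-05). Gabpa, the N-box binding subunit of GABP, did not pass (-0.10, adjusted p = 0.574). The list's median log2 fold change was 0.12. In the soleus 0 of 11 passed, with 2 at an unadjusted p under 0.05. Without mouse 1 Etv4 was called there (0.81, adjusted p = 0.0347).

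Of 21 genes that cluster or anchor the receptor, 4 were higher and 1 was lower in double KO gastrocnemius, beside 20.9% of all genes called in either direction (median log2 fold change 0.10). Without mouse 1 the counts were 5 and 2. Ache, the esterase that clears acetylcholine, was 14.2 to 23.6 CPM in control, 18.9 in mouse 1 and 44.5 to 49.2 in the other 3 (1.09, adjusted p = 0.00154). Colq, which anchors Ache in the cleft, was called at 0.60 (adjusted p = 0.000925), and Sntb1, a syntrophin of the dystrophin complex, at -1.95 (adjusted p = 1.52e-05). Rapsn, the scaffold bound to the receptor, was not called (-0.09, adjusted p = 0.68). Musk, the kinase that starts clustering, was named after its values were seen. It was 43.4 to 59.1 CPM in control gastrocnemius, 57.1 in mouse 1 and 23.18 to 27.98 in the other double KO mice, and was called without mouse 1 in the gastrocnemius (-0.93, adjusted p = 0.000117) and the soleus (-1.15, adjusted p = 0.0127), not with it.

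The remaining lists were shorter, and their counts in the gastrocnemius stand beside the same 20.9% of all genes called. Of 3 other nicotinic subunit genes tested, Chrna9 was called higher (4.33, adjusted p = 0.00207), with 0.0739 CPM in control, 4.68 in mouse 1 and 0.382 to 0.631 in the others, and Chrna2 lower (-0.75, adjusted p = 0.0447, and -0.67 without mouse 1, adjusted p = 0.0949), with a median of 0.01. Of 11 genes for receptor assembly and turnover 0 passed (2 at an unadjusted p under 0.05, median -0.08), and without mouse 1 Trim63, a ubiquitin ligase of muscle, was called (-1.73, adjusted p = 3.98e-06). Of 7 genes of immature fibres 2 were higher and 2 lower (median -0.23): Nes, an intermediate filament found at the junction, rose by 1.69 (adjusted p = 4.83e-07), while the developmental myosins Myh3 and Myh8 were at -0.42 and -0.62 (adjusted p = 0.000621 and 0.0153). In the soleus none of these lists had a gene past the threshold, with or without mouse 1, other than those named.

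Markers of other cells were summed in the same way, again beside 20.9% of all genes called in the gastrocnemius. The summed level of 12 Schwann cell and nerve markers was 36.1 to 42.7 CPM in the double KO and 43.3 to 69.1 CPM in control, with 0 of 9 tested markers called and 4 at an unadjusted p under 0.05 (median log2 fold change -0.60). There macrophage markers summed to 45.5 to 73.1 CPM against 36.2 to 42.0 (4 of 6 called higher, median 0.68), with the top value from mouse 1. Endothelial markers summed to 165 to 189 against 208 to 229 (3 of 6 lower, median -0.26), and fibroblast markers to 592 to 691 against 542 to 614, groups that overlapped (3 of 6 higher, median 0.45). Of the 7 fibre markers, Myh7 (-0.94, adjusted p = 0.00031), Myh2 (-0.58, adjusted p = 0.00115) and Myh4 (-0.47, adjusted p = 0.00339) were called lower. Without mouse 1, 4 of the 7 were called lower and 1 higher (median -0.39). The gene called higher was Des (0.32, adjusted p = 0.00196), and Acta1 and Ckm were at 0.29 and 0.20, not called. These 3 were named after their values were seen.

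Satellite cell markers, taken as a sum, differed between mouse 1 and the other double KO mice in both muscles. In the gastrocnemius they summed to 147 CPM in mouse 1 and 69.9 to 80.3 CPM in mice 2 to 4, against 96.99 to 146 in control. In the soleus they summed to 182 CPM in mouse 1 and 76.4 to 85.2 CPM in mice 2 to 4, against 139 to 183 in control. Mice 2 to 4 thus lay below every control library in each muscle, and mouse 1 did not. Most of each sum was Sdc4, a syndecan that is not particular to satellite cells, named after its values were seen. Sdc4 was 124 CPM in mouse 1 and 48.6 to 59.5 in the others in the gastrocnemius, and 154 and 48.1 to 56.8 in the soleus. It was not called with mouse 1 (-0.47, adjusted p = 0.201, and -0.71, adjusted p = 0.369) and was lower without it (-0.90, adjusted p = 0.000953, and -1.32, adjusted p = 0.00135). Pax7, the factor that defines satellite cells, was higher in double KO gastrocnemius (0.79, adjusted p = 0.0405). In the soleus Pax7 was at 0.80 (adjusted p = 0.215), and without mouse 1 at 1.00 (adjusted p = 0.0417). Calcr, a receptor of quiescent satellite cells, was the 1 other marker of the 6 called in the gastrocnemius (-1.30, adjusted p = 0.0343), and was at -1.14 without mouse 1 (adjusted p = 0.078).

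In each group every one of these markers of other cells had counts. In the soleus 0 of them were called with all mice, and apart from the satellite cell sums of mice 2 to 4 the double KO and control sums overlapped, with or without mouse 1. In whole muscle, fewer cells of a type and less RNA per cell cannot be told apart, and the part of these markers in the subunit differences was not tested.

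The genes whose log2 levels followed each subunit most closely over the 32 libraries were ranked among 11040 genes by Pearson's r, as a description with no test, since the libraries share muscle, genotype and mouse. Chrne was most like Ccndbp1 (r = 0.97), a cyclin D binding protein, then Lgals1 (0.92), a galectin, and Nipa1 (0.90), Mgmt (0.89) and Lancl1 (0.88). Ccndbp1 was 18.7 ± 0.511 CPM in control and 43.5 ± 2.95 CPM in double KO gastrocnemius, and 16.1 ± 1.44 and 17.5 ± 0.640 CPM in the soleus (SD, n = 4). Without mouse 1 its r with Chrne was 0.98.

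Chrna1 was most like Ncam1 (r = 0.93), the adhesion molecule that spreads over denervated fibres, which was also on the list of activity-dependent genes. Without mouse 1 its r was 0.92, below that of Atxn10 (0.94, and 0.91 over 32). Chrnd was most like Slc43a2 (0.96), an amino acid transporter, and Atxn10 (0.96). Without mouse 1 the r of Slc43a2 with Chrnd was 0.94, below that of Atxn10 (0.956) and Pacs1 (0.958). Chrnb1 was most like Dusp13 (0.92), a phosphatase (0.86 without mouse 1). Among the subunits themselves, Chrna1 and Chrnd had the highest r over 32 libraries (0.92), whereas Chrne had an r of -0.10 with Chrna1 and -0.19 with Chrnd. Within the 16 gastrocnemius libraries those values were 0.80 and 0.85, where all 3 genes are high in the double KO. Within the 15 soleus libraries other than mouse 1, Chrna1 and Chrnd had an r of 0.10. Over all 16 soleus libraries Chrne had an r of -0.62 with Chrna1 and -0.38 with Chrnd. Over those 15 the values were -0.57 and 0.15.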

How the data were processed

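Polyadenylated RNA from 2 muscles of 16 mice was sequenced. The deposited values are estimated counts, made by the authors per gene of Ensembl 102 on GRCm38 with featureCounts 2.0.1 (reverse strand, setting 2, reads with several alignments shared as fractions), per the file headers. They were rounded to whole numbers here. Fractions touched Chrna1 in 28 libraries and Chrnd in 1. Symbols matched 55141 genes.

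edgeR 4.0.16 (R 4.3.3) was used with filterByExpr, TMM scaling and robust quasi-likelihood tests (2-sided, Benjamini-Hochberg adjustment over all genes tested, threshold 0.05), on the 16 libraries of each muscle or on all 32. CPM used the TMM factors of all 32. The alternatives were DESeq2 1.42.0, other scaling, no filter, replicate blocks, fewer groups in the fit and leaving out each library, and, chosen after seeing the data, leaving out the libraries that stood apart. The members and gene lists were chosen with earlier results of these data known. Of each list the text names up to 3 genes called with the largest change between double KO and control, or else the 2 with the highest level, and genes outside this rule are marked as such or are named for their role (Rapsn, Gabpa). The values of 1 listed gene are not reported here. Both muscles of a mouse share its number, so the number pairs the muscle contrasts: deviations of the paired libraries from their group means correlated at r of 0.03 to 0.58, above 0.1 in 11 of 16 mice. Across genotypes a shared number pairs nothing. Each mouse gives 1 library a muscle. Data were simulated from the control means and the dispersions. Of 100 genes changed by 1 log2 unit, 93% were recovered in the gastrocnemius double KO comparison (17536 genes) and 78% in the soleus one (18143 genes). There were 9 and 15 false calls. The changed genes had a control mean above 1 CPM, so Chrng was not covered. These rates are averages over genes and do not give the rate for any 1 subunit.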

Additional observations from a re-analysis of the deposited data

Results flagged for a closer look

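The libraries of double KO mouse 1 lay far from the other 3 of their group, by the gap to the nearest library relative to the group's range. This held for Chrna1 in the gastrocnemius (72.95 CPM against 18.75 to 22.57) and the soleus (99.1 against 22.4 to 24.4), for Chrnd in the gastrocnemius (9.42 against 3.81 to 4.37) and the soleus (53.0 against 5.96 to 7.69), and for Chrnb1 (39.3 against 12.9 to 14.2) and Chrng (3.08 against 0.0845 to 0.469) in the soleus. The share of Chrne in Chrne plus Chrng, per kb, was 76.6% in that soleus library against 97.6% to 99.5% in the others.

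Other libraries stood out for 1 gene or 2. Gastrocnemius control 1 was low for Chrnd (1.44 CPM against 2.52 to 2.66) and Chrne (6.63 against 9.73 to 10.2). Chrnb1 was high in gastrocnemius Tgfbr1 KO 4 (28.9 CPM against 20.2 to 20.9) and soleus control 3 (17.8 against 15.5 to 15.8). In all 11 of 48 groups of 4 values were marked this way, and chance marks about 1 in 20.

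The double KO effect on Chrne differed between the muscles by the test of that difference, at -2.32 on the log2 scale, soleus minus gastrocnemius.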

How the results depend on the processing

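Counts of subunit genes past the threshold moved as follows. Except where stated, the share of all genes called in each alternative fit is not given here. A move of these counts thus cannot be told apart from a general shift in calls. The departure from additivity in the gastrocnemius gave 1, but 2 with DESeq2, 3 without the 3 gastrocnemius libraries that stood apart and 1 to 2 when 1 library was left out. Double KO against control in the soleus gave 0, and 0 to 1 when 1 library was left out. The count of 1 came without soleus double KO 1, where 1.68% of all genes were called. Soleus against gastrocnemius in the double KO gave 3, but 5 with the mouse as a replicate block and 1 when the other genotypes were dropped from the fit, which leaves fewer samples. The difference in the double KO effect between the muscles gave 1, but 2 with the mouse block, 2 without both libraries of mouse 1 and 1 to 3 when 1 library was left out. Leaving out 1 library moved Chrna1 between -0.48 (adjusted p = 0.0477, without double KO 1) and 0.62 in double KO against control in the soleus. It moved Chrnd between -1.22 (adjusted p = 0.0449, without soleus double KO 1) and 0.58 in the difference of the double KO effect between the muscles.

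Blocking on the replicate number within a muscle changed none of the counts of called members (3 in double KO against control in the gastrocnemius, 0 in the soleus). Raw counts not divided by length gave a Chrne share of 99.68%, 99.37%, 99.33% and 99.6% in control, Acvr1b KO, Tgfbr1 KO and then double KO gastrocnemius, and of 95.56%, 97.14% and 97.43% in control, Acvr1b KO and Tgfbr1 KO soleus. In double KO soleus the raw share averaged 86.95%, against 93.19% per kb, and was 57.1% in mouse 1. Adding 0.5 counts gave 99.8% in control gastrocnemius. Scaling by raw totals moved Chrna1 to 11.34, 9.996 and 34.42 CPM in gastrocnemius Acvr1b KO, gastrocnemius Tgfbr1 KO and soleus Acvr1b KO, Chrnb1 to 16.36 in soleus Tgfbr1 KO, Chrnd to 6.818 in soleus Acvr1b KO and Chrne to 7.956 in gastrocnemius Tgfbr1 KO. Of 1367 values of single members, 65 changed sign with no call in either fit. The Chrne call in double KO against control in the gastrocnemius held under every alternative run. Chrng, with 0 to 10 counts a library in the gastrocnemius, is limited by depth there.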
